A study of Mus musculus with 6 samples.

Results

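Kruppel-like factors are transcription factors that bind GC-rich and CACCC-type DNA through a cluster of zinc fingers at the carboxyl end of the protein. They differ mainly in the rest of the protein, which recruits histone acetyltransferases, CtBP or SIN3A and so decides whether a bound gene is raised or repressed. In myeloid cells, Klf2 is known for holding monocytes in a resting, low-inflammation state, Klf4 for monocyte differentiation and alternative activation of macrophages, and Klf6 for promoting inflammatory gene expression together with NF-kB. The genes described here are the 9 whose symbol in the expression table is Klf2, Klf3, Klf4, Klf6, Klf7, Klf10, Klf11, Klf13 or Klf16, out of 24421 genes in the table and 17 named Klf with a number. Of the other 8 such genes, only Klf9 and Klf15 reached a mean of 1 RPKM over the libraries. RPKM, the deposited unit, is a read count divided by exon length in kilobases and scaled to the tags of the library.

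The libraries hold RNA from cells stained as F4/80+ CD11b+ that were sorted out of collagenase-digested visceral fat (vWAT) of male C57BL/6N mice aged 12 weeks. All mice ate a high-fat diet with 60 kcal% fat and were injected under the skin every 6 days over 30 days. The EtOH group received the ethanol vehicle, the E2 group estradiol at 10 mg/kg, and the 4-OHE1 group 4-hydroxyestrone, a catechol estrogen, at the same 10 mg/kg. Each group has 2 libraries, and the labels do not say how many mice a library pools or whether its pair came from other mice, so a p-value here reflects only how far these libraries scatter, and that scatter may be technical. All groups share the diet, the sex and the digestion, and no group was fed another diet.

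The stretches upstream of the 4 factors whose transcripts passed the test below are shown first, because these factors went in different directions in the same libraries. They are the 250 bases before each start site in RefSeq's mouse assembly GRCm38.p6, a later build than the mm9 of the deposited files, written 5′ to 3′ on the strand of the gene. Capitals mark the GC box GGGCGG on either strand in all 4, the E-box CACGTG in Klf4 and Klf6, and the MEF2 site in Klf2. They lie at chr8:72318812-72319061 on the plus strand (Klf2), chr4:55532476-55532725 on the minus strand (Klf4), chr13:5861239-5861488 on the plus strand (Klf6) and chr7:63938916-63939165 on the minus strand (Klf13).
Klf2: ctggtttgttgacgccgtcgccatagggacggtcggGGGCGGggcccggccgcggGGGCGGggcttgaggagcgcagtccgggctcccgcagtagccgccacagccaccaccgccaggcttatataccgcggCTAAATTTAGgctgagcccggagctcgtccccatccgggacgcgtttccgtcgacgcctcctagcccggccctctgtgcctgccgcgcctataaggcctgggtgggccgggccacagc
Klf4: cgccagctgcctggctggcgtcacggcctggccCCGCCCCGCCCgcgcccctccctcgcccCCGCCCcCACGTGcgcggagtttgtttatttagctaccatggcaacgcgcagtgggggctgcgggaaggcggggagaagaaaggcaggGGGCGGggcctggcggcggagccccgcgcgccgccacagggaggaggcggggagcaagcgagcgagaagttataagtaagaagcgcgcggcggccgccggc
Klf6: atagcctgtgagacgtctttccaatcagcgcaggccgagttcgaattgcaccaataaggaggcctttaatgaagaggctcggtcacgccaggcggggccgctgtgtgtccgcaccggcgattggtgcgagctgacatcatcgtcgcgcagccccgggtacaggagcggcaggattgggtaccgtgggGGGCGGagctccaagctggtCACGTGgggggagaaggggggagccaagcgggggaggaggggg
Klf13: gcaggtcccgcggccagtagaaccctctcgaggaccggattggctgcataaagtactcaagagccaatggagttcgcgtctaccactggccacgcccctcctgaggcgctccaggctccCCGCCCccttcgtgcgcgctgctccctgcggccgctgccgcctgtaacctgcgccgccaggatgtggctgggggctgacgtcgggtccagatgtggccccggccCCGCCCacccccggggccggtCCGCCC

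Promoters of 7 of the 9 genes were in the RefSeq table, the exceptions being Klf10 and Klf16. GC boxes, which Sp and Kruppel-like factors themselves bind, occurred in 7 of these 7 windows, against 32.7% of 32851 mouse promoters of the same length. The windows are also rich in G and C, at 59.2% to 78.4% against a median of 52.4%, so the boxes and the base composition cannot be told apart. The E-box occurred in Klf4, Klf6 and Klf11, against 6.02% of all promoters. Its letters are mostly G and C, so the same limit from base composition holds for it. The E-box overlaps no GC box in the windows shown, while 2 of the 4 GC boxes in Klf4 overlap each other. The MEF2 site, bound by the factors through which the kinase ERK5 raises Klf2, occurred in the Klf2 window at bases -118 to -109 from the start and in 2.92% of all promoters. The CACCC box (CACCC), a binding site of the family itself, was present in 4 of the 7, against 52.0% of all promoters, and in Klf13 it overlaps a GC box. None of the 7 windows held the letters of an estrogen response element (GGTCA and TGACC with 3 bases between, 0.0639% of all promoters), a glucocorticoid response element (AGAACA and TGTTCT with 3 bases between, 0.00913%), an AP-1 site (TGANTCA, 6.75%) or a cAMP response element (TGACGTCA, 1.55%). Both strands were read for each motif, and sites farther away were not looked at.

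The libraries differ in composition in ways that touch every value below. Exon reads numbered 18697456 and 35293924 in EtOH and 4515276 to 5764342 in the 4 estrogen libraries. The share of tags lying in exons was 84.8% ± 0.366 (SD, n = 2) in EtOH, then 74.1% ± 2.41 in E2, then 61.7% ± 1.19 in 4-OHE1, and Malat1, a nuclear long noncoding RNA, rose from 198.8 ± 1.83 RPKM in EtOH to 433 ± 103.6 in E2 and 919 ± 93.6 in 4-OHE1. The Malat1 call in E2 was lost without EtOH replicate 1, EtOH replicate 2 or E2 replicate 2. It was also lost with no filter on low values (adjusted p = 0.0596 by limma). Because RPKM divides by all tags, the median log2 change over 10950 genes was -0.18, -0.44 and -0.25 for E2 against EtOH, 4-OHE1 against EtOH and 4-OHE1 against E2, and it was -0.00, -0.04 and -0.02 once values were rescaled to exon reads. Genes are said to have risen or fallen only where limma's test passed an adjusted p of 0.05 under both scalings in the same direction. Levels are given in RPKM as deposited, log2 changes with their standard error (SE) or 95% interval are relative to exon reads, and the adjusted p given is the higher one of the pair of scalings. Because 1 RPKM was added before taking logarithms, the folds given for low genes understate their ratio of RPKM. In these sorted bulk samples, fewer cells of a type and less RNA per cell cannot be told apart.

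The sorted cells carried the transcripts of the macrophage markers, 8 of which were in the table. Adgre1, which encodes F4/80, stood at 303 ± 3.08 RPKM in EtOH, then 172 ± 8.13 in E2, then 139 ± 7.07 in 4-OHE1, and Itgam, which encodes CD11b, at 109 ± 0.164, 113 ± 6.16 and 71.1 ± 2.19. Adgre1 fell in both estrogen groups (log2 change -0.62 and -0.66, adjusted p = 0.00353 and 0.000739). That call in E2 was lost without EtOH replicate 1 (adjusted p = 0.0830) or 2 (0.0831), while Itgam passed in neither estrogen group. Of the 8 markers, 2 fell in E2 (Adgre1 and Lyz2, lysozyme, log2 change -0.46). Limma called 0 higher there, with 3 of the 8 at an unadjusted p under 0.05 in either direction, while edgeR called Mertk higher and DESeq2 Mertk and Itgam. In 4-OHE1, 1 rose (Mertk, a receptor for apoptotic cells, 1.18, adjusted p = 0.00220) and 4 fell (Lyz2 -0.82, Adgre1 -0.66, Fcgr1 -0.45 and Cd68 -0.39). The Fcgr1 call was lost without EtOH replicate 1 or 2. On recovered reads edgeR and DESeq2 called the same 4 lower in 4-OHE1, and Csf1r as well as Mertk higher.

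Klf4, Klf2 and Klf6 were the abundant members, ranking 405, 448 and 672 among the 10950 genes tested by their mean RPKM over the 6 libraries. In EtOH the order of levels was Klf2 (154 and 157 RPKM), Klf6 (111 and 116) and Klf4 (109 and 107), the last pair being close but not overlapping. Klf10, Klf3 and Klf13 followed between 14.9 and 23.6 RPKM in EtOH, and Klf11, Klf16 and Klf7 lay between 6.91 and 9.38, where the order of the last 3 is within the spread of Klf7. In 4-OHE1 the order was Klf4 (158 and 139 RPKM), Klf2 (90.3 and 84.1), Klf6 (58.5 and 56.6) and then Klf13 (32.03 and 30.64), which had passed Klf3 and Klf10. Klf16 was the lowest there, at 5.94 and 4.78 RPKM.

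**Figure D1:**
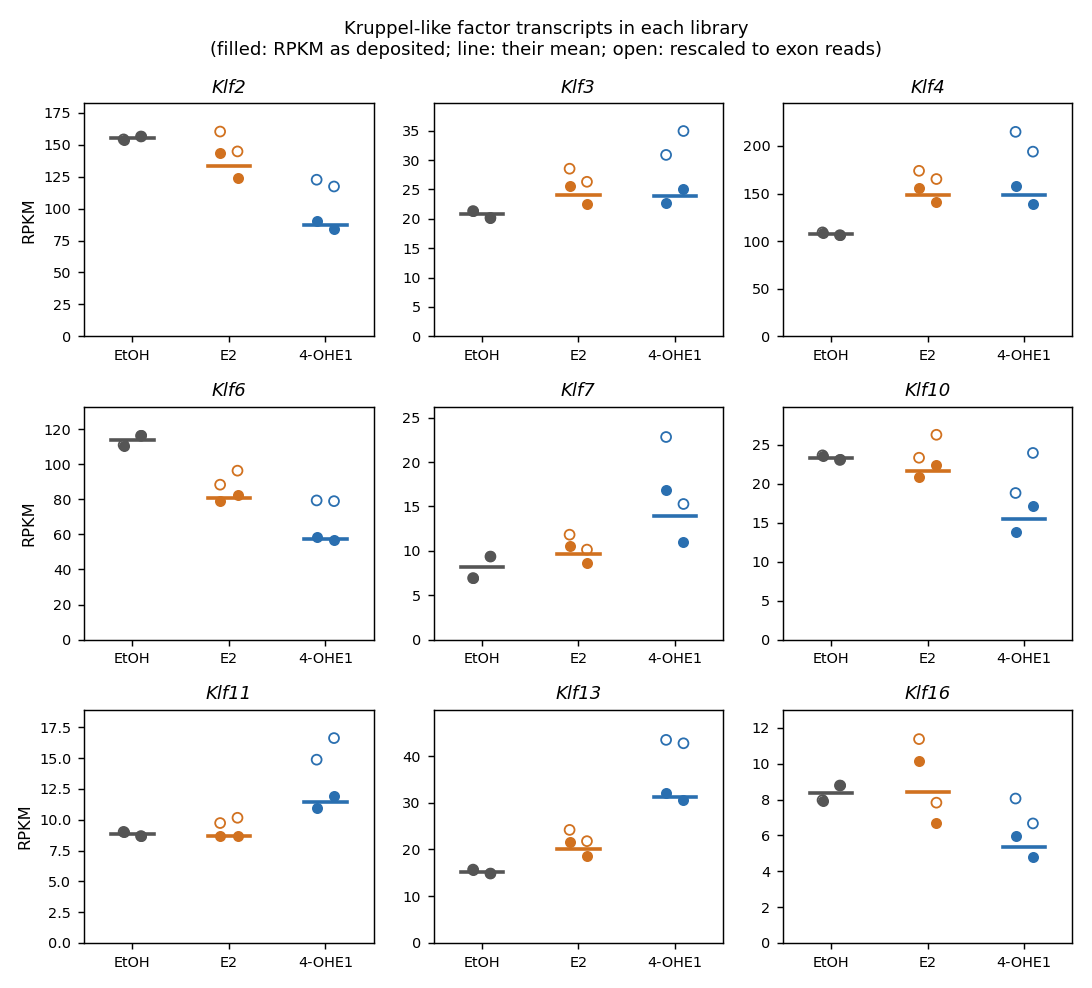
RPKM of each factor (vertical axes, starting at 0) in the 2 libraries of each group (horizontal axes). Filled points are values as deposited, lines their mean, and open points the same libraries rescaled to exon reads. Klf4 and Klf13 are higher and Klf6 lower in every 4-OHE1 library than in either EtOH library under both scalings, and the open points lie well above the filled ones in the estrogen groups and nearly on them in EtOH.

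The first comparison asked what estradiol did to these transcripts against the vehicle. Klf4 rose, and none of the other 8 passed under both scalings. Across all genes 3.93% were called in this comparison (1.75% higher and 2.17% lower), against 1 of 9 factors. The median log2 change was 0.16 over the 9 factors and -0.00 over all genes tested. With 2 libraries a group, groups that do not overlap under either scaling are frequent: they were found for 4 of the 9 factors and for 44.8% of all genes.

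Klf4, a factor that raises alternative activation genes together with STAT6 in mouse macrophages, stood at 109 and 107 RPKM in EtOH and at 155 and 141 RPKM in E2. Both E2 libraries were above both EtOH libraries, with no overlap under either scaling. The log2 change was 0.65 (SE 0.08, 95% interval 0.47 to 0.83, adjusted p = 0.0363 by limma), a 1.57-fold increase. The call rests on every one of the 4 libraries compared: the change was 0.61 to 0.69 with any of them left out, but the adjusted p was 0.290 without EtOH replicate 1, 0.334 without EtOH replicate 2, 0.141 without E2 replicate 1 and 0.109 without E2 replicate 2.

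Klf2 stood at 154 and 157 RPKM in EtOH and at 143 and 124 in E2. The E2 libraries were lower as deposited but overlapped EtOH relative to exon reads, where the log2 change was -0.03 (95% interval -0.21 to 0.15). Klf6 stood at 111 and 116 RPKM in EtOH and at 78.9 and 82.2 in E2. Both E2 libraries were below both EtOH libraries under either scaling, yet the log2 change of -0.30 (interval -0.49 to -0.11) passed only with the authors' scaling, as 5.44% of all genes did in the lower direction (adjusted p = 0.0179, against 0.0980 relative to exon reads). Klf13, a repressor of the subgroup that binds SIN3A, stood at 15.6 and 14.9 RPKM in EtOH and at 21.6 and 18.6 in E2. Here it was the exon scaling alone that passed, as for 3.18% of all genes in the higher direction, with a log2 change of 0.56 (interval 0.29 to 0.82, adjusted p = 0.0416, against 0.117 with the authors' scaling).

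The remaining 5 factors passed under neither scaling in E2. Klf3, a repressor that binds CtBP, stood at 21.3 and 20.2 RPKM in EtOH and at 25.5 and 22.5 in E2 (log2 change 0.39, interval 0.11 to 0.67, adjusted p = 0.356). Klf7, an activator known from neuron development in mice, overlapped between the groups as deposited, with 6.91 and 9.38 RPKM in EtOH and 10.6 and 8.66 in E2. For Klf10, Klf11 and Klf16 the sign of the change depended on the scaling, with log2 changes of 0.08, 0.15 and 0.16 relative to exon reads and -0.11, -0.02 and -0.02 as deposited. On whole reads recovered from the authors' tables, edgeR's quasi-likelihood test called 3 of the 9, with Klf4 and Klf13 higher and Klf6 lower, where it called 7.55% of 12176 genes (4.53% higher and 3.02% lower). In the authors' deposited table for this comparison, Klf3, Klf4 and Klf13 were higher and Klf6 lower at adjusted p = 0.0224, 1.7e-09, 9.8e-06 and 0.00728. That makes 4 of 9, where the authors' deposited table has 10.4% of its 24421 genes under 0.05 (4.91% higher and 5.5% lower). Only 17846 of the 24421 genes had an RPKM above 0 in any library, and all 9 factors did.

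The second comparison set 4-OHE1 against the vehicle. Klf13 and Klf4 rose and Klf2 and Klf6 fell, so 4 of the 9 factors were called where 19.6% of all genes were (5.74% higher and 13.9% lower). The other 5 did not pass under both scalings. The median log2 change of the 9 factors was 0.64, against -0.04 over all genes tested. The groups did not overlap under either scaling for 7 of the 9 factors and for 49.2% of all genes.

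Klf13 showed the largest change of the 9 in this comparison. It stood at 15.6 and 14.9 RPKM in EtOH and at 32.03 and 30.64 in 4-OHE1, from 1454 and 1888 reads in the latter, and both 4-OHE1 libraries were above all 4 others. The log2 change was 1.44 (SE 0.11, interval 1.17 to 1.71, adjusted p = 0.00128), a 2.71-fold increase, and it passed under all 17 alternatives run. The gene (NM_021366) lies on the minus strand of chromosome 7 at 71031237 to 71083801 in mm9, in a span that overlaps E030018B13Rik on the other strand. Whether strand was used in counting is not given in the sources used here, and E030018B13Rik itself was listed at no more than 0.048 RPKM in any library.

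Klf4 (NM_010637, minus strand of chromosome 4, 55540009 to 55545347) stood at 158 and 139 RPKM in 4-OHE1, above the 109 and 107 of EtOH. The log2 change was 0.92 (SE 0.08, interval 0.73 to 1.10, adjusted p = 0.00831), a 1.89-fold increase relative to exon reads. As deposited it was 0.46, the same to 2 decimals as in E2, so the difference between the estrogen groups depended on the scaling.

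Klf2 (NM_008452, plus strand of chromosome 8, 74842961 to 74845553) stood at 90.3 and 84.1 RPKM in 4-OHE1, below all 4 other libraries. It fell by 0.37 on the log2 scale (SE 0.08, interval -0.55 to -0.19, adjusted p = 0.0155), which is a change of -22.6% relative to exon reads. Klf6 (NM_011803, plus strand of chromosome 13, 5860735 to 5869639) stood at 58.5 and 56.6 RPKM, also below all 4 other libraries. It fell by 0.51 (SE 0.08, interval -0.71 to -0.32, adjusted p = 0.00582), a change of -30.0%. Either EtOH library was needed for 3 of these calls: without EtOH replicate 1 the adjusted p was 0.127 for Klf2, 0.0600 for Klf4 and 0.0643 for Klf6, and without EtOH replicate 2 it was 0.146, 0.0726 and 0.0883. The count of factors called was then 1 instead of 4, and that of all genes called 589 and 563 instead of 2150, while the log2 changes stayed between -0.38 and -0.36, 0.90 and 0.93, and -0.55 and -0.48.

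**Figure D2:**
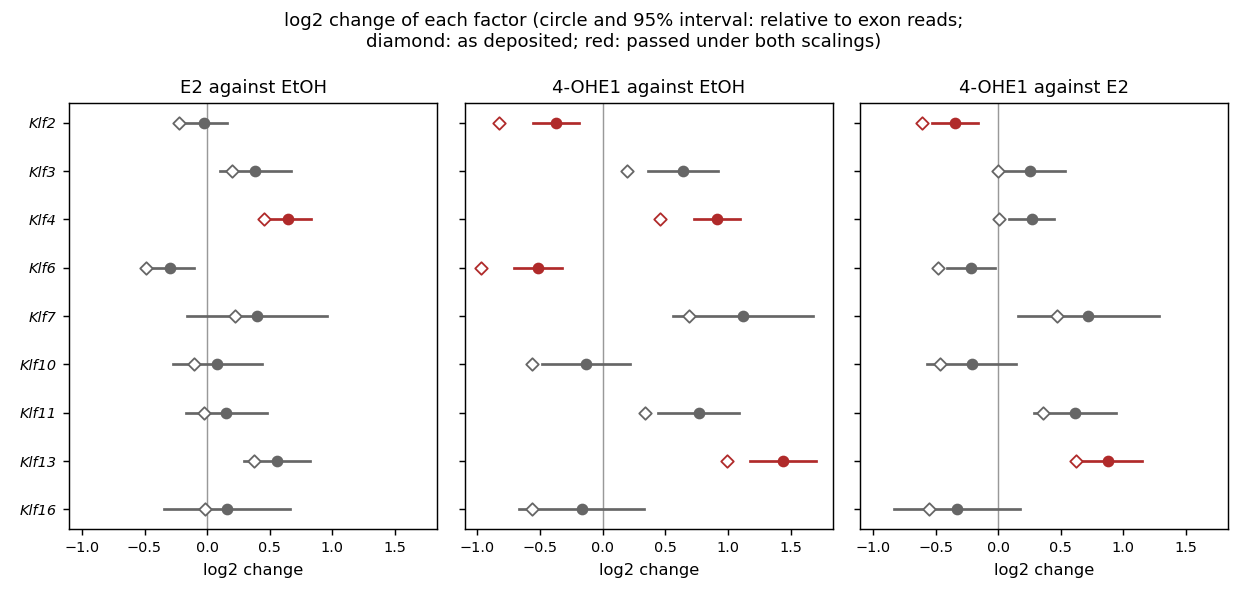
log2 change of each factor in the 3 comparisons (horizontal axes, shared scale). Circles with bars are changes relative to exon reads with 95% intervals, open diamonds the changes with the authors' scaling, and red marks factors that passed under both. In 4-OHE1 against EtOH, Klf13 lies farthest right at 1.44 and Klf6 farthest left at -0.51.

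Klf3, Klf7 and Klf11 passed in 4-OHE1 with the exon scaling alone, all higher, where 12.8% of all genes passed in that direction. Klf3 stood at 22.8 and 25.1 RPKM against 21.3 and 20.2 in EtOH (log2 change 0.64, adjusted p = 0.0104 relative to exon reads and 0.218 with the authors' scaling). Klf11, a TGF-beta-inducible repressor that recruits SIN3A, stood at 11.0 and 11.9 RPKM against 8.99 and 8.70 (log2 change 0.77, adjusted p = 0.00930 and 0.0742). Klf7 stood at 16.8 and 11.0 RPKM against 6.91 and 9.38 (log2 change 1.12, adjusted p = 0.0162 and 0.0558). The 4-OHE1 libraries of Klf7 lay far apart. Klf11 passed under both scalings without 4-OHE1 replicate 1 (0.84, adjusted p = 0.0410), and Klf7 without 4-OHE1 replicate 2 (1.39, adjusted p = 0.0136).

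Klf10, the other TGF-beta-inducible factor, went the opposite way to Klf11 as deposited. It stood at 13.9 and 17.2 RPKM in 4-OHE1 against 23.6 and 23.1 in EtOH, and only the authors' scaling gave a pass (adjusted p = 0.0151), as it did, in the lower direction, for 39.5% of all genes. Relative to exon reads the groups overlapped and the log2 change was -0.13 (interval -0.48 to 0.22). Klf16, a SIN3A-binding repressor, stood at 5.94 and 4.78 RPKM against 7.94 and 8.81, and also overlapped relative to exon reads (log2 change -0.17, interval -0.67 to 0.33). With edgeR on recovered reads 7 of the 9 were called, Klf3, Klf4, Klf7, Klf11 and Klf13 higher and Klf2 and Klf6 lower, where 28.9% of all genes were (14.0% higher and 14.9% lower). The authors' deposited table gives the same 7 in the same directions, with adjusted p from 3.4e-21 for Klf13 to 0.0155 for Klf2. Of all genes in that deposited table, undetected ones included, 12.4% are under 0.05 (5.57% higher and 6.79% lower). The comparisons with EtOH share its libraries, so they are not independent of each other.

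The third comparison set the 2 estrogens against each other at the same dose and schedule, as 1 pair of compounds. 4-OHE1 differs from estradiol by a further hydroxyl on the aromatic ring, which makes it a catechol, and by a ketone where estradiol has an alcohol. Klf13 rose and Klf2 fell in 4-OHE1 relative to E2, so 2 of 9 factors were called where 9.64% of all genes were (2.5% higher and 7.14% lower). Klf13 stood at 32.03 and 30.64 RPKM against 21.6 and 18.6, a log2 change of 0.88 (SE 0.11, interval 0.61 to 1.15, adjusted p = 0.0153). Klf2 stood at 90.3 and 84.1 RPKM against 143 and 124, a log2 change of -0.34 (SE 0.08, interval -0.53 to -0.16, adjusted p = 0.0367). Neither pair of groups overlapped, which held under both scalings for 5 of the 9 factors and for 40.2% of all genes.

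These 2 calls depended on the libraries and the fit. For Klf13 the adjusted p was 0.0613 without EtOH replicate 1, 0.0608 without EtOH replicate 2, 0.0614 without E2 replicate 2 and 0.0554 when only the 4 libraries compared were fitted. For Klf2 it was 0.131 without either EtOH library, 0.115 without E2 replicate 1, 0.0635 without E2 replicate 2 and 0.127 with only the 4 libraries. The change itself ranged from 0.62 to 0.95 for Klf13 and from -0.60 to -0.27 for Klf2 over all 17 alternatives. With edgeR 4 of the 9 were called (Klf13 and Klf11 higher, Klf2 and Klf6 lower), where 14.4% of all genes were (6.54% higher and 7.82% lower).

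For the 7 factors not called between the estrogens, the intervals show what size of difference remains possible. For Klf4 the log2 change was 0.27 (interval 0.08 to 0.45, adjusted p = 0.0690) relative to exon reads, against an adjusted p of 0.987 with the authors' scaling, and as deposited its E2 libraries (155 and 141 RPKM) overlapped those of 4-OHE1 (158 and 139). For Klf6 it was -0.22 (interval -0.41 to -0.03, adjusted p = 0.121), and the authors' scaling alone gave a pass (0.00934), as it did in the lower direction for 19.7% of all genes. Klf7 and Klf11 had log2 changes of 0.72 (interval 0.16 to 1.28) and 0.61 (interval 0.29 to 0.94), with adjusted p = 0.0939 and 0.0359 relative to exon reads and 0.209 and 0.0937 with the authors' scaling. Klf11 thus passed with the exon scaling alone, as 5.54% of all genes did in the higher direction. Klf7 passed without 4-OHE1 replicate 2 (1.00, adjusted p = 0.0454). Klf10 and Klf16 had log2 changes of -0.21 (interval -0.57 to 0.14) and -0.33 (interval -0.83 to 0.18). Klf3 had a log2 change of 0.25 (interval -0.03 to 0.53), which was -0.00 as deposited.

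Ratios of members within a library do not depend on how that library was scaled. The ratio of Klf4 to Klf2 in RPKM was 0.708 and 0.680 in EtOH, then 1.08 and 1.14 in E2, then 1.75 and 1.65 in 4-OHE1. The 3 groups did not overlap, and Klf4 passed Klf2 in every estrogen library. Klf4 had risen and Klf2 fallen in 4-OHE1 above, so the separation of their ratio there adds no support. How often ratios of other gene pairs separate the groups was not counted. The ratio of Klf6 to Klf2 was 0.719 and 0.742 in EtOH, then 0.551 and 0.665 in E2, then 0.647 and 0.673 in 4-OHE1, where both estrogen groups were below EtOH and overlapped each other. A ratio shows unequal change and not which of the pair changed.

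As parts of the summed RPKM of the 9 factors, Klf2 made up 33.6% and 33.7% in EtOH, 30.2% and 28.5% in E2 and 22.1% in both 4-OHE1 libraries. Klf4 made up 23.8% and 22.9%, 32.7% and 32.5%, and 38.7% and 36.6%, in the same order. Klf6 made up 24.2% and 25.0%, 16.6% and 18.9%, and 14.3% and 14.9%. The 3 together accounted for 81.6% and 81.7% of the sum in EtOH and for 75.0% and 73.6% in 4-OHE1. The sum itself was 457 and 465 RPKM in EtOH, then 475 and 434 in E2, then 409 and 380.4 in 4-OHE1 as deposited. Relative to exon reads it was 459 and 464 in EtOH, then 531 and 509 in E2, then 556 and 530 in 4-OHE1. The direction of the sum in 4-OHE1 thus depended on the scaling.

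**Figure D3:**
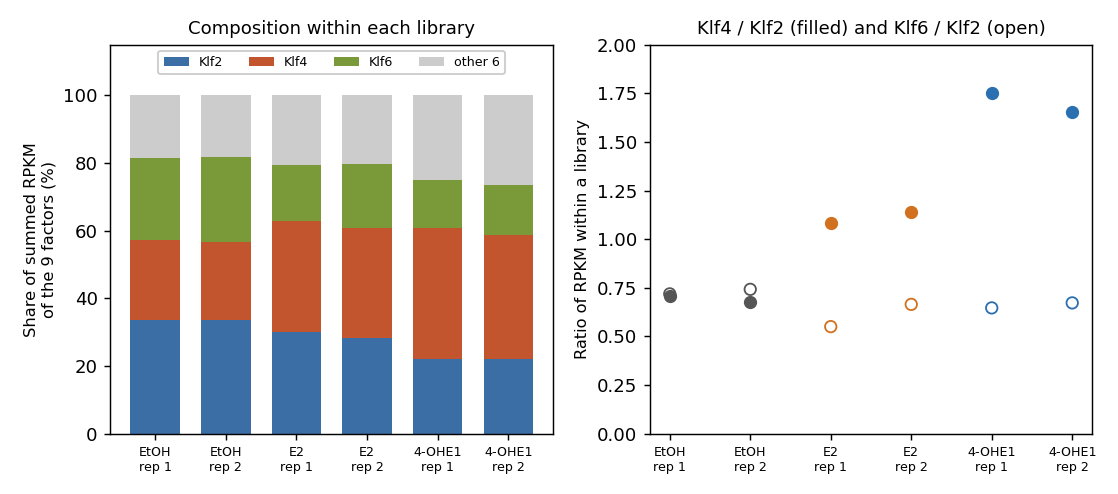
Left, share of the summed RPKM of the 9 factors taken by Klf2, Klf4, Klf6 and the other 6 in each library (percent, bars from 0 to 100). Right, the ratio of Klf4 to Klf2 (filled) and of Klf6 to Klf2 (open) in the same libraries. The filled points run from 0.708 and 0.680 in EtOH to 1.08 and 1.14 in E2 and 1.75 and 1.65 in 4-OHE1.

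Klf9, a glucocorticoid-induced relative, stood at 22.6 and 22.5 RPKM in EtOH, then 49.97 and 53.26 in E2, then 45.8 and 52.5 in 4-OHE1. It rose in both estrogen groups (log2 change 1.35 and 1.54, adjusted p = 0.00314 and 0.000637), the first call being lost without EtOH replicate 1 (adjusted p = 0.0657), EtOH replicate 2 (0.0669) or E2 replicate 2 (0.0520). Fkbp5, another gene induced by glucocorticoids, rose from 11.8 ± 0.608 RPKM to 68.3 ± 7.0 and 156 ± 5.52. Klf15, which acts in metabolic tissues, was below 1 RPKM in EtOH (0.533 and 0.453) and E2 (0.619 and 0.846), stood at 2.37 and 3.59 in 4-OHE1, and so passed the filter on low values only through 4-OHE1. Among the 9 factors, Klf3, Klf7, Klf10, Klf11 and Klf16 passed under both scalings in no comparison.

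Genes around these factors were counted from lists of known partners. Of the 3 Sp family genes tested, relatives that bind the same GC boxes, limma called 0 in any comparison and 0 had an unadjusted p under 0.05 under both scalings, while edgeR and DESeq2 called Sp3 higher in 4-OHE1. Of 11 corepressors and coactivators, 0 were called in E2 (2 at an unadjusted p under 0.05, Crebbp by edgeR, and Crebbp and Ep300 by DESeq2), and 2 rose and 0 fell in 4-OHE1. These were Ep300 (7.90 ± 0.0240 to 14.7 ± 0.271 RPKM, log2 change 1.25, adjusted p = 0.00736) and Crebbp (1.09, adjusted p = 0.0209), the histone acetyltransferases that Kruppel-like factors recruit. Both calls were lost without EtOH replicate 1 (adjusted p = 0.0691 and 0.108) or 2 (0.0706 and 0.157). CtBP and SIN3 genes are partners of Klf3 and of the Klf10, Klf11, Klf13 and Klf16 subgroup. Their log2 changes were -0.24 to 0.49 in 4-OHE1, none called by limma and Sin3a called higher by DESeq2. Kat2b, also among the 11, was called higher in 4-OHE1 by edgeR and DESeq2 but not by limma (0.57, adjusted p = 0.584).

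Of 7 genes of the ERK5 and MEF2 pathway that drives Klf2, Map2k5, the kinase of ERK5, fell in 4-OHE1 (log2 change -0.61, adjusted p = 0.0450). That call was lost when any of 5 of the 6 libraries was left out (adjusted p = 0.0556 to 0.296), with no filter (0.0797), with only the 4 libraries compared (0.0782), with a replicate block (0.0616) and with DESeq2 (0.113). On recovered reads edgeR and DESeq2 both called Map3k2, Mef2a and Mef2d of this list higher in 4-OHE1, so its members did not share a direction. Of 9 TGF-beta and SMAD genes, the pathway that induces Klf10 and Klf11, 2 fell and 0 rose in 4-OHE1: Tgfb1 itself (151 ± 1.21 to 77.5 ± 2.98 RPKM, log2 change -0.50, adjusted p = 0.00747) and Tgif1, a SMAD corepressor (-0.51, adjusted p = 0.0248). Without EtOH replicate 1 or 2 the adjusted p was 0.0803 and 0.0840 for Tgfb1 and 0.224 and 0.178 for Tgif1. DESeq2 did not call Tgif1 in 4-OHE1 (adjusted p = 0.0669) and called Skil lower there. Limma called 0 of either list in E2, where 1 and 3 had an unadjusted p under 0.05. In E2 edgeR and DESeq2 called Tgfbr1 lower, and DESeq2 called Mef2a higher. Of 6 ubiquitin ligase genes for these factors, Fbxw7, a subunit of the ligase that targets Klf2, rose in 4-OHE1 (1.18, adjusted p = 0.00955). That call was lost without EtOH replicate 1 or 2. In E2 limma did not call Fbxw7 (0.60, adjusted p = 0.163), while edgeR and DESeq2 called it higher. Both also called Smurf2 higher in 4-OHE1.

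Genes known to respond to these factors went in both directions. Of 5 genes that Klf4 raises in mouse macrophages, 2 rose and 1 fell in E2, and 4 fell and 0 rose in 4-OHE1. Klf4 rose in both. The remaining gene in 4-OHE1, Mrc1, had a log2 change of 0.53 (adjusted p = 0.421 by limma), and edgeR and DESeq2 called it higher. Mrc1 was higher in 4-OHE1 than in E2 (0.51, adjusted p = 0.0381), a call lost in 8 of 17 alternatives. Arg1, the arginase of alternative activation, stood at 43.6 and 48.8 RPKM in EtOH, then 171 and 157 in E2, then 14.6 and 13.5 in 4-OHE1 (log2 change 2.0 and -1.22, adjusted p = 0.000795 and 0.000498). Chil3, a chitinase-like protein, went the same ways (2.43 and -1.88), and the secreted protein gene Retnla fell in both (-0.27 and -0.92). Pparg, a lipid-sensing nuclear receptor, fell in 4-OHE1 (-1.06, adjusted p = 0.0269). Limma did not call Pparg with no filter (adjusted p = 0.0728) or with only the 4 libraries compared (0.0627). Nor did it call Retnla in E2 with no filter (0.119). Retnla in E2 was not called without EtOH replicate 1, EtOH replicate 2 or E2 replicate 1 (adjusted p = 0.0814, 0.105 and 0.0604), and Pparg in 4-OHE1 was not called without any 1 EtOH or E2 library (0.0624 to 0.166).

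Of 4 tested genes that Klf2 raises in T or endothelial cells, Cdkn1a, the cell cycle inhibitor p21, rose in E2 and 4-OHE1 (log2 change 0.83 and 1.30, adjusted p = 0.0130 and 0.000929). Its E2 call was lost without any 1 EtOH or E2 library (adjusted p = 0.0602 to 0.181). Itgb7, an integrin subunit of lymphocytes, fell in 4-OHE1 from 8.77 and 9.43 RPKM to 1.18 and 0.304 (log2 change -2.39, adjusted p = 0.00365). S1pr1 (-0.27 in E2 and 0.11 in 4-OHE1) and Thbd (-0.08 and -0.22) were called against EtOH in neither estrogen group. Of 3 genes listed as repressed by Klf3, 2 were tested. Lgals3, which encodes galectin-3 and is repressed by Klf3 in mice, stood at 1383 and 1428 RPKM in EtOH, then 735 and 693 in E2, then 281 and 299 in 4-OHE1. It fell in both (log2 change -0.78 and -1.81, adjusted p = 0.00127 and 2.0e-05), while Klf3 passed under both scalings in neither. Fam132a, also tested, was not called by limma in E2 (-0.35, adjusted p = 0.445) or 4-OHE1 (-0.45, adjusted p = 0.150).

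Klf2, Klf4, Klf6 and Klf10 are known to be raised quickly when tissue is digested, together with immediate early genes. Of 15 such genes, 2 rose (Fosb and Egr1) and 1 fell (Atf3) in E2, and 9 fell and 0 rose in 4-OHE1. Fos stood at 684 and 679 RPKM in EtOH, then 551 and 540 in E2, then 175 and 166 in 4-OHE1 (log2 change -0.13 in E2, not called, and -1.53 in 4-OHE1, adjusted p = 2.0e-05). In 4-OHE1 the stress factor Atf3 (-3.83), Ier3 (-1.53) and the chaperone gene Hspa1a (-1.25) fell as well. The summed RPKM of the list was 4344 to 4430 in EtOH, then 3935 to 4216 in E2, then 1747 to 1785 in 4-OHE1. Klf2 and Klf6 were lower in the same 2 libraries as this list, Klf4 was higher in them, and the part of digestion in these results was not tested. Without any 1 EtOH or E2 library the E2 calls of Fosb, Egr1 and Atf3 were lost. The 4-OHE1 call of Hspa1a was lost without either EtOH library. Fosb in E2 was also not called by limma with no filter (adjusted p = 0.0855) or with a replicate block (0.0531).

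**Figure D4:**
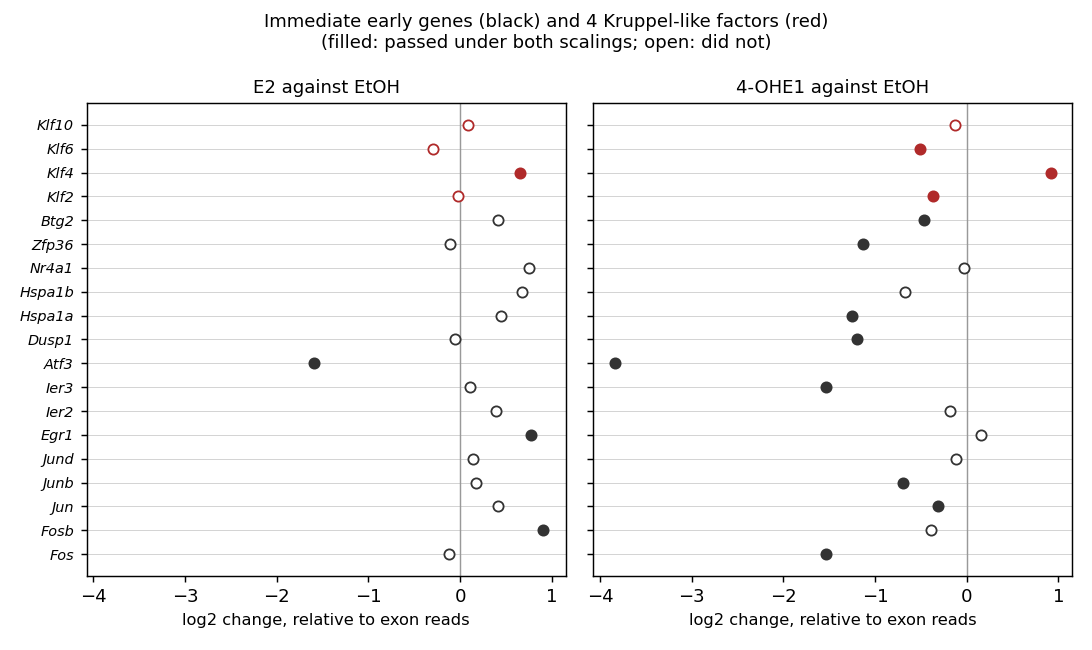
log2 change relative to exon reads (horizontal axes, shared scale) of 15 immediate early genes (black) and of Klf2, Klf4, Klf6 and Klf10 (red), in E2 and 4-OHE1 against EtOH. Filled points passed under both scalings. In 4-OHE1 the filled black points all lie left of 0, with Klf2 and Klf6 on the same side and Klf4 at 0.92 on the other.

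Other cells that a sort could carry also express some of these factors. Marker sums here and below are as deposited. Endothelial cells are rich in Klf2 and Klf4. Their 10 markers summed to 36.2 to 36.7 RPKM in EtOH, then 22.4 to 23.5 in E2, then 27.7 to 27.9 in 4-OHE1. Relative to exon reads, the median log2 change of the 9 tested against EtOH was -0.51 in E2 and 0.30 in 4-OHE1. Limma called 0 of the 9 tested against EtOH (2 and 1 at an unadjusted p under 0.05 in E2 and 4-OHE1, 0 and 3 by edgeR, 0 and 2 by DESeq2), while 3 of the 9 had an unadjusted p under 0.05 between the estrogens. Cdh5, the endothelial cadherin, stood at 8.56 RPKM in both EtOH libraries, then 5.39 and 4.10 in E2, then 7.84 and 7.77 in 4-OHE1. It was higher in 4-OHE1 than in E2 (log2 change 0.88, adjusted p = 0.0399), where Klf2 fell, a call lost without EtOH replicate 1 (0.137), EtOH replicate 2 (0.136), E2 replicate 1 (0.0609), E2 replicate 2 (0.125) or 4-OHE1 replicate 1 (0.0502). T cells are rich in Klf2, and their 8 markers summed to 12.8 to 14.8, 7.76 to 9.33 and 3.41 to 4.02 RPKM in the same order of groups, with Cd3e listed at 0 in both 4-OHE1 libraries. Both T cell markers that passed the filter, Cd2 and Il7r, fell in 4-OHE1, Cd2 not passing without EtOH replicate 2 (adjusted p = 0.0755). The filter takes the mean over all 6 libraries. With the 8 markers summing to at most 4.02 RPKM in 4-OHE1, it favoured markers high in EtOH or E2. The fall of Cd2 and Il7r therefore gives no direction for T cell RNA as a whole. The other 6 were too low to test and did not share a direction. Cd247, for one, averaged 0.485 RPKM in EtOH, then 0.837 in E2, then 1.38 in 4-OHE1, and Lck averaged 0.299, 0.372 and 0.776.

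The 9 adipocyte markers summed to 431 to 444 RPKM in EtOH, then 714 to 719 in E2, then 872 to 873 in 4-OHE1. Of them 5 rose in E2 and 7 in 4-OHE1, with 0 falling by limma, edgeR or DESeq2, among them Cfd, which encodes adipsin (4.39 and 4.78, then 27.5 and 27.5, then 49.0 and 45.5 RPKM). Without any 1 EtOH or E2 library the E2 calls of Adig and Retn were lost. Both were also lost by limma with no filter (adjusted p = 0.0672 and 0.127) and by edgeR (0.0692 and 0.0572). Retn was lost as well with 0.1 RPKM added in place of 1 (0.0527 by limma). Summed stromal markers were 269 to 273, 202 to 210 and 177 to 179 RPKM. Col1a1, Col3a1 and Col1a2 fell in both estrogen groups (log2 change in 4-OHE1 -1.66, -1.26 and -1.03). Their E2 calls were lost without any 1 EtOH or E2 library. Dpt, of the same list, rose in 4-OHE1 (1.22, adjusted p = 0.00216), and edgeR and DESeq2 called 1 stromal marker higher in each estrogen group. Erythroid markers summed to 156 to 171, 130 to 148 and 114 to 136 RPKM. Relative to exon reads, the median log2 change of the 5 tested against EtOH was -0.17 in E2 and 0.003 in 4-OHE1. Neutrophil markers summed to 10.9 to 14.0, 8.73 to 8.98 and 8.81 to 11.6, with Camp at 0 throughout. B cell markers summed to 9.87 to 12.9 RPKM over all libraries, and mesothelial markers to 7.24 to 9.03 in EtOH and 2.25 to 3.90 in the estrogen libraries. The part of such cells in the results for the Kruppel-like factors was not tested.

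Genes whose pattern was most like that of a called factor were ranked over the 6 libraries by the root mean square difference of their log2 values, centred on EtOH and relative to exon reads, among 7097 genes with a mean of at least 5 RPKM. For Klf13 they were Phf20 (0.034), Mast3 (0.047) and Nisch (0.067), with log2 changes in 4-OHE1 of 1.44, 1.40 and 1.38. For Klf4 they were Mapk8ip3 (0.062), Ap2a2 (0.066) and Lpin1 (0.069), with changes of 0.98, 0.85 and 0.88. For Klf6 they were Arpc5 (0.024), Lcp1 (0.026) and Ptpra (0.028), with changes of -0.50, -0.51 and -0.48. For Klf2 they were Cox6a1 (0.030), Slc39a1 (0.038) and Exo5 (0.040), with changes of -0.36, -0.36 and -0.32. With 2 libraries a group, closeness on this measure is a description of these libraries.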

How the data were processed

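RNA-seq was analysed for 6 libraries in 3 groups of 2, as the labels assign them. Per the submitters' processing notes, mm9, STAR, HOMER, edgeR and DESeq2 were used. The deposited RPKM values (headed FPKM in part of the authors' files) are normalised to exon length and all tags. The authors' edgeR tables hold a deposited signal, reads scaled within each table, with log2 fold changes, p-values and adjusted p-values. Dividing each library's signal by the value of 1 read gave whole numbers within 0.05 for 119614 of 119614 entries, and these read counts, recovered from the deposited signal, were used in alternatives. Genes whose transcript differed between those tables (266) were left out of tests on reads, and each of the 9 factors had the same transcript in all tables.

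Because the deposited values are RPKM, the test was limma-trend (limma 3.58.1, R 4.3.3) on RPKM plus 1, log2-transformed, of the 10950 genes averaging 1 RPKM or more, fitting all 6 libraries together. Tests were two-sided and adjusted by Benjamini-Hochberg, with a threshold of 0.05. They were run with the authors' scaling and again after setting each library to its exon reads, at the average exon share in EtOH. Alternatives used edgeR 4.0.16 and DESeq2 1.42.0 on recovered reads, other scalings, filters and added values, subsets of libraries and a replicate term. The limma and edgeR steps were tested on simulated data. The factors, lists and tests were chosen with earlier results of these data known. Named beside the 9 factors are Klf9, Fkbp5 and Malat1, the 3 genes nearest to each called factor, and list genes called in a comparison. Up to 4 called genes a list, by size, could be named, and not all of these are. Some list genes outside this rule, given as values or calls (Camp, Cd247, Cd3e, Cd68, Cdh5, Csf1r, Fam132a, Itgam, Kat2b, Lck, Map3k2, Mef2a, Mef2d, S1pr1, Sin3a, Skil, Smurf2, Sp3, Tgfbr1, Thbd), were chosen after their values were seen. Promoter sequences are from RefSeq, GRCm38.p6.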

Additional observations from a re-analysis of the deposited data

How the results depend on the processing

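Over 17 alternatives for each factor and comparison, 388 of the values kept direction and side of the threshold, 23 lost a call, 40 gained 1 and 8 changed sign. Factors called in E2 (1) numbered 2 with the authors' scaling, exon scaling or TMM alone, 0 with no filter, 3 with edgeR, with or without its filter, and 3 with DESeq2. In 4-OHE1 (4) they numbered 7 with exon scaling, TMM, edgeR, edgeR without filter and DESeq2. In 4-OHE1 against E2 (2) they numbered 1 with no filter, 4 with edgeR, 5 with edgeR without filter, 5 with DESeq2 and 0 with only the 4 libraries compared. Leaving out 1 library gave 0 to 1, 1 to 5 and 0 to 3 factors, and 46 to 1037, 563 to 3181 and 172 to 2241 of all genes.

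Over all genes, calls in E2 (430) numbered 789 with the authors' scaling, 919 with edgeR, 1335 with edgeR without filter, 1077 with DESeq2 and 1029 with only the 4 libraries. In 4-OHE1 (2150) they numbered 4957, 3523, 4189 and 3351, and in 4-OHE1 against E2 (1056) 2436, 1748, 2521 and 1819 in the same order, with 338 for only the 4 libraries. Klf4 in E2 lost its call with no filter (adjusted p = 0.0708), and Klf2 in 4-OHE1 against E2 with TMM (0.0507) and no filter (0.0573). The cause was not tested.

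With the authors' scaling the sign changed in E2 for Klf10 (-0.105), Klf11 (-0.0231) and Klf16 (-0.016), and in 4-OHE1 against E2 for Klf3 (-0.00316) and Klf9 (-0.0722). Leaving out 1 library changed it in E2 for Klf2 (-0.101 to 0.0454), Klf10 (-0.00052 to 0.164) and Klf16 (-0.0856 to 0.402), and in 4-OHE1 for Klf10 (-0.297 to 0.0356).

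Libraries with the same replicate number also share the start of a library identifier, which the labels do not explain, and nothing in the labels ties them to a shared animal, batch or day. Deviations of replicates numbered 1 from their group means correlated at -0.0088, -0.02 and 0.01 between groups. With a replicate block, 330, 1911 and 856 genes were called in the 3 comparisons, and the factors called in 4-OHE1 against E2 numbered 1, Klf2 having an adjusted p of 0.0511. A lone library left in a group was assumed to vary like the others. Depth limits Klf16 and Klf7 most, with 89 to 206 reads in the estrogen libraries.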
